A study of Mus musculus with 6 samples.

Results

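Complex I of the mitochondrial respiratory chain was read out through every gene of the deposited count table whose symbol starts with Nduf. These are 45 of 24421 rows, of which 38 are subunit genes and 7 are assembly factor genes whose symbols start with Ndufaf. The libraries are RNA-seq of group 2 innate lymphoid cells (ILC2), lymphocytes of tissues that lack antigen receptors and make type 2 cytokines. They were sorted from mouse brain by surface markers and grown in medium with 20% fetal calf serum and the factors IL-7, IL-2, IL-33 and SCF. The old group holds 3 libraries from C57BL/6 mice of 20 to 22 months, and the young group holds 3 libraries from C57BL/6 mice of 2 to 3 months, all after 2 weeks of culture. The labels state no genetic change or treatment beyond age, and separate animals, pools or cultures are not named. The p-values therefore rest on the spread among 3 libraries per group, part of which may be technical. The cells had spent the 2 weeks outside the brain, which limits them as a model of ILC2 in the tissue.

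Complex I takes electrons from NADH and passes them through a flavin and a chain of iron-sulfur clusters to ubiquinone, and it pumps protons across the inner mitochondrial membrane. Its core subunits carry out the chemistry and are shared with bacteria, while accessory subunits surround the core and are needed for assembly or stability. The N module holds the NADH site, the Q module holds the ubiquinone site, and the membrane arm has a proximal and a distal part. Assembly factors build these modules and leave the finished enzyme. The core subunits encoded by mitochondrial DNA were not analysed here, and neither was Ndufb1.

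The libraries held 16477157 to 20804291 counts. TMM scaling, edgeR's correction for differences in RNA composition, gave factors of 0.840 to 0.885 in old and 1.12 to 1.18 in young libraries, and levels are given as CPM, counts per 1000000 of these scaled sizes, in the order of libraries 1 to 3. Marker sums are in CPM of unscaled library totals. None of the 13 ILC2 markers was at 0 in all 6 libraries, and their sum was 11154 to 13193 CPM in old and 14864 to 17113 CPM in young cultures. Of the 12 tested, Id2 and Thy1 rose, by 0.80 and 1.14 on the log2 scale, and 5 fell. These 5 were Il2ra (-0.42), Il5 (-0.72), Il1rl1 (-0.82), Gata3 (-1.11) and Klrg1, a surface receptor of mature ILC2. Klrg1 had 0, 0.472 and 3.88 TMM-scaled CPM in old against 76.6, 82.5 and 100.7 CPM in young cultures. With an offset for transcript length and GC content, Il2ra (0.11) and Il1rl1 (-0.28) did not pass the test, at edgeR adjusted p of 0.521 and 0.156. Microglia and macrophage markers summed to 45.1 to 71.6 CPM in old and 5.88 to 20.9 CPM in young cultures. Of these, Tmem119 and P2ry12 rose, Adgre1 fell and was at 0 in all old libraries, and Csf1r was at 0 in all 6 libraries. P2ry12 did not pass with library totals as the sole scaling or with that offset, at edgeR adjusted p of 0.068 and 0.0512. Endothelial markers summed to 111.2 to 140.9 CPM in old and 74.8 to 120.3 CPM in young cultures, all from Pecam1, with Cldn5 and Cdh5 at 0. Pecam1 rose by 0.79 on the log2 scale, but did not pass with library totals (edgeR adjusted p = 0.223). B cell markers summed to 27.9 to 51.6 CPM in old and 15.96 to 25.7 CPM in young cultures, all from Cd79b, with the other 4 at 0. Oligodendrocyte markers summed to 13.2 to 15.7 CPM in old and 23.8 to 43.2 CPM in young cultures, with Mog at 0. The 4 NK cell and ILC1 markers were at 0 throughout, and in each library T cell markers summed to at most 15.3 CPM and dendritic cell markers to at most 9.83 CPM. The part of these cells in the results below was not tested. In bulk RNA, a change in the share of cells and a change in RNA per cell cannot be told apart.

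Most subunit genes were higher in old cultures, and the assembly factors mostly were not. Of the 38 subunit rows, 36 passed the filter on low counts: 29 rose, 2 fell and 5 did not pass the test, at an edgeR adjusted p under 0.05. Over all 11805 genes tested, 11.2% were higher and 8.14% lower by the same rule. The median log2 change of the 36 subunits was 0.84, against -0.10 over all genes tested. Of the 7 assembly factors 1 rose and 0 fell, with a median log2 change of 0.27. At an unadjusted edgeR p under 0.05 1 of them was lower, and 0 were by DESeq2 or limma-voom after adjustment. The difference between subunits and assembly factors was not tested. Counting Nduf rows whose old and young libraries did not overlap in TMM-scaled CPM gave 34 higher and 3 lower of 43. By that rule 19.3% of all tested genes were higher and 18.8% lower. Statements below that libraries did not overlap refer to this scale, except for shares and ratios of counts. On library totals alone, groups also overlapped for Ndufv1, Ndufv2, Ndufs3, Ndufs4, Ndufs7, Ndufs8, Ndufa5, Ndufa8, Ndufa9, Ndufb5, Ndufb8 and Ndufaf1.

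The count of higher subunits depended on scaling and on an offset for transcript length and GC content, and length and GC were not varied separately. With library totals as the sole scaling, which shifts the median log2 change of all genes from -0.10 to -0.52, 17 subunits were higher and 2 lower, and the subunit median was 0.42. In that setting 6.07% of all genes tested were higher and 20.2% lower. With the length and GC offset, 13 subunits were higher and 3 lower, and the subunit median was 0.25 against 0.07 over all genes tested, of which 10.5% were higher and 5.07% lower. All 17 and all 13 were among the 29. In each of 19 alternative settings Ndufv3, Ndufa7, Ndufa1, Ndufc1, Ndufb11 and Ndufa12 stayed higher and Ndufs1 stayed lower, at an edgeR, DESeq2 or limma adjusted p under 0.05. For other genes, the settings named below as ending a call are not always a full list.

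**Figure D1:**
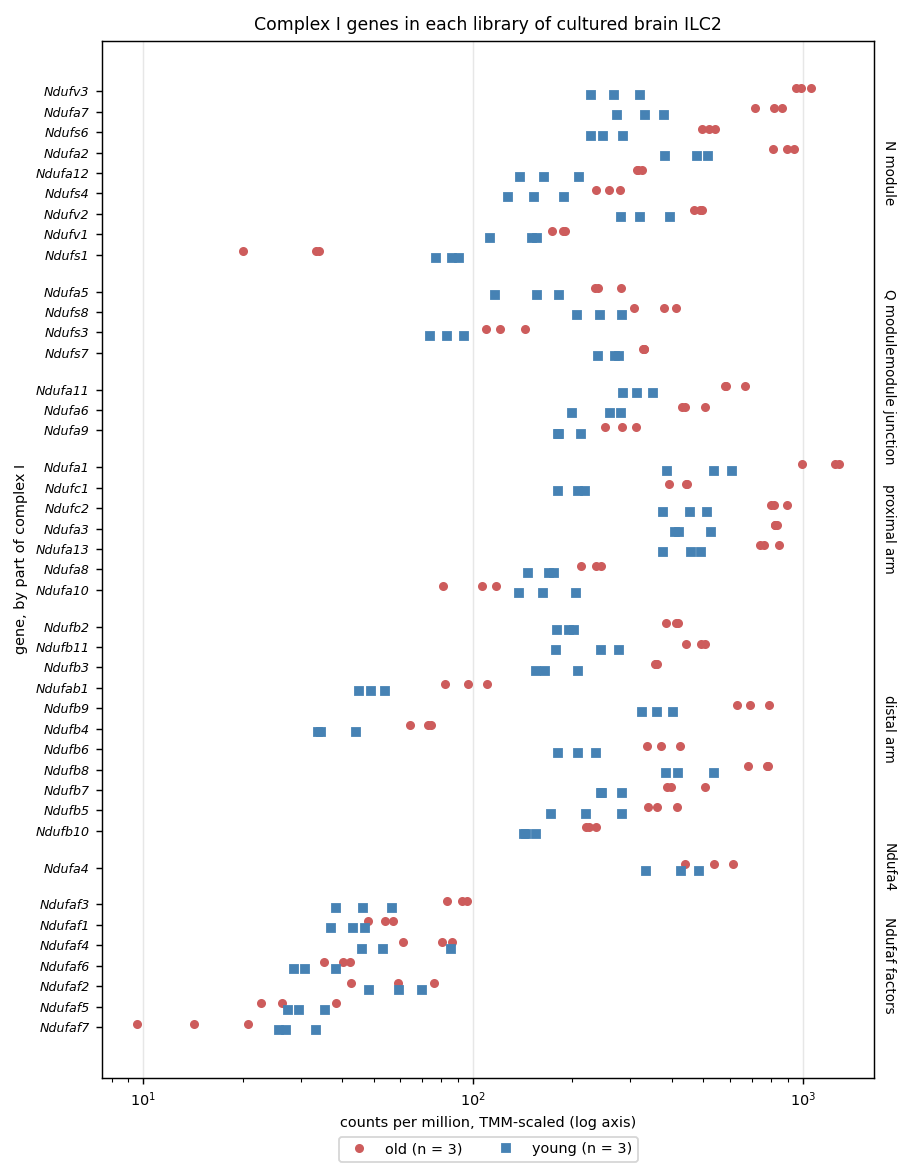
Level of 42 of the 43 tested Nduf genes in CPM (x axis, log scale), 1 row per gene and grouped by part of the complex. Red circles are the 3 old libraries and blue squares the 3 young libraries; in Ndufv3 the old libraries lie at 956 to 1060 CPM and the young at 229 to 322 CPM, while Ndufs1 and Ndufa10 show the opposite order.

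The accessory subunits and the core subunits were counted apart, and the difference between them was not tested. Of 28 accessory subunits tested, 27 rose and Ndufa10 fell, with a median log2 change of 0.90. With library totals 17 accessory subunits were higher, at a median of 0.49, and with the length and GC offset 12 were, at a median of 0.32. Of the 7 core subunits encoded in the nucleus, Ndufv2 and Ndufs8 rose, Ndufs1 fell and 4 did not pass the test, with a median of 0.39 that was -0.03 with library totals and 0.0081 with the offset. As a share of all counts of a library, which uses no scaling factor, the accessory subunits held 1.20%, 1.22% and 1.21% in old against 0.848%, 0.744% and 0.924% in young cultures. The core subunits held 0.153%, 0.141% and 0.157% in old against 0.159%, 0.149% and 0.163% in young cultures. The accessory shares did not overlap between groups and the core shares did.

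Promoters of the 6 higher members whose calls held in every setting, and of Ndufa10, which fell, are printed to show the sequence at the start of genes that moved together or apart. Each is a 300-base RefSeq window (GRCm38.p6) around the annotated start of the gene, in the direction of the gene. For Ndufs1 none is printed, and Ndufa7 is shown with 1 of 2 overlapping windows. Capitals mark matches, on either strand, to the motifs named after them.
Ndufv3 (chr17:31519865-31520164, plus strand): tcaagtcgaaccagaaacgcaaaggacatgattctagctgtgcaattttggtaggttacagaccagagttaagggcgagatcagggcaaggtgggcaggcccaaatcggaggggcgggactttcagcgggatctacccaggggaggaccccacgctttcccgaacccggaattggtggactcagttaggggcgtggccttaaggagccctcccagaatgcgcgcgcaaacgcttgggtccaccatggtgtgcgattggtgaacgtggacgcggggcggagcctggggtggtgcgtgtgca
Ndufa7 (chr17:33824322-33824621, plus strand): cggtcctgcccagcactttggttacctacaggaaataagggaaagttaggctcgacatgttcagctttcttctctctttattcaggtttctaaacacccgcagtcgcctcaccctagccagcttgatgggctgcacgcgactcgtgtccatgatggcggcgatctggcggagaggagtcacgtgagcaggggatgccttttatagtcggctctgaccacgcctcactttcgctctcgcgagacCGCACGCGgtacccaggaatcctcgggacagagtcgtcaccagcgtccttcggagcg
Ndufa12 (chr10:94198785-94199084, plus strand): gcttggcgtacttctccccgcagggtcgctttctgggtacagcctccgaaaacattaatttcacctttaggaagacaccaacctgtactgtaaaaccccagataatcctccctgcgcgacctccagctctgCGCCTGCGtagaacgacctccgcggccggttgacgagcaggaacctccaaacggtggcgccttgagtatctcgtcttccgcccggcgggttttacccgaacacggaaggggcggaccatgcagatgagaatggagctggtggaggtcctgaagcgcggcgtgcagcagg
Ndufc1 (chr3:51408906-51409205, minus strand): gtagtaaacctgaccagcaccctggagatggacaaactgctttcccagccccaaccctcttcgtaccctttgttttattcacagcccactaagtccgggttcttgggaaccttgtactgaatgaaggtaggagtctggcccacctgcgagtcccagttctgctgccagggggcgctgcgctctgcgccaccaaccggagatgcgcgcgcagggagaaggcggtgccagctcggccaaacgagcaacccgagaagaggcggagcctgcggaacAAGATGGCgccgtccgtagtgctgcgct
Ndufa1 (chrX:37191189-37191488, minus strand): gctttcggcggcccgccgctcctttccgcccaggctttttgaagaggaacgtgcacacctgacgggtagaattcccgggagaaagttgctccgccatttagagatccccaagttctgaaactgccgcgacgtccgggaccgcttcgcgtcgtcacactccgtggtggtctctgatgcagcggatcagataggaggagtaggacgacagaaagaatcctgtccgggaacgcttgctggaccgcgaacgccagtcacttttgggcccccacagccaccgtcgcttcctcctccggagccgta
Ndufb11 (chrX:20617570-20617869, minus strand): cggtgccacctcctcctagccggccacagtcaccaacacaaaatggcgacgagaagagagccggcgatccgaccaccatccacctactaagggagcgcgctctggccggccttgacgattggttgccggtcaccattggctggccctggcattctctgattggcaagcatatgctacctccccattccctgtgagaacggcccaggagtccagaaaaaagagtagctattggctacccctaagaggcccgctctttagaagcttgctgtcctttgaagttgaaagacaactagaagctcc
Ndufa10 (chr1:92473709-92474008, minus strand): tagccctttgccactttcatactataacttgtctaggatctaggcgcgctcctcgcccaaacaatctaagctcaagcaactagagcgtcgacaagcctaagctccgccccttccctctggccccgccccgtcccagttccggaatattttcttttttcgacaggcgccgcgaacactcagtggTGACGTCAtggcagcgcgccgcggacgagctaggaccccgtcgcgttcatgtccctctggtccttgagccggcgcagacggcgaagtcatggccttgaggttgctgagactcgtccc
The motifs searched were those of NRF1 (CGCANGCG), a regulator of nuclear respiratory genes, of ETS factors such as GABP (CCGGAAG), of YY1 (AAGATGGC), of ERR receptors (AAGGTCA) and of CREB (TGACGTCA). Each window shown holds at most 1 match. In these windows Ndufa7 and Ndufa12 hold the NRF1 motif, Ndufc1 the YY1 motif and Ndufa10 the CREB motif, while none of the 5 matched in Ndufv3, Ndufa1 or Ndufb11. Windows were found for 39 of the 45 genes, 41 windows in all. Among them 36.6% hold the NRF1 motif, against 17.4% of windows of tested genes and 8.2% of all 32851 windows. The YY1 motif is in 17.1% of Nduf windows, 4.5% of windows of tested genes and 2.7% of all windows. For ETS factors the shares are 12.2% of Nduf windows, 18.1% of those of tested genes and 8.9% of all, for ERR receptors 7.3%, 3.2% and 4.7%, and for CREB 7.3%, 3.2% and 1.8% in the same order. A match describes letters in the window and is no measure of binding.

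In the N module, which takes electrons from NADH, 7 of 9 genes rose and Ndufs1 fell, and 5 were higher with library totals as with the length and GC offset. Ndufs1 (chr1:63143596-63176833, minus strand) encodes the core subunit that holds several of the iron-sulfur clusters on the electron path, and it had 34.1, 33.3 and 20.0 CPM in old against 90.9, 77.3 and 86.1 CPM in young cultures. Every old library lay below every young library. Its log2 change was -1.54 ± 0.25 (SE, edgeR adjusted p = 0.00164), and it ran from -1.96 to -1.13 over the 19 alternatives, with an adjusted p of at most 0.0163. Ndufv1, the core subunit that binds NADH and the flavin, had 187, 173 and 189.7 CPM in old against 156, 151 and 113 CPM in young cultures. The groups did not overlap, but the log2 change of 0.39 ± 0.17 (SE, edgeR adjusted p = 0.143) did not pass the test, and its sign turned with library totals, at -0.03. Ndufv2, the core partner of Ndufv1 with a cluster of its own, had 494, 469 and 489.8 CPM in old against 320.2, 280.4 and 396 CPM in young cultures, with every old library above the young. It rose by 0.54 ± 0.15 (SE, edgeR adjusted p = 0.0266). That call ended when old 1, old 2, old 3, young 1 or young 2 was left out, with an adjusted p of up to 0.124, and with library totals (0.533).

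Among the accessory subunits of the N module, Ndufv3 showed the greatest log2 change of the 43 Nduf genes tested. Ndufv3 (chr17:31520115-31531331, plus strand), a small subunit bound to Ndufv1 and Ndufv2, had 986, 1060 and 956 CPM in old against 268, 229 and 322 CPM in young cultures. Old and young libraries did not overlap. It changed by 1.88 ± 0.15 (SE, edgeR adjusted p = 1.49e-05) on the log2 scale, and 1.43 to 2.04 over the alternatives. Ndufa7 (chr17:33824572-33838317, plus strand) had 865, 821 and 714 CPM in old against 331, 273 and 379 CPM in young cultures, and its log2 change was 1.29 ± 0.15 (SE, edgeR adjusted p = 0.000244), or 0.45 with the length and GC offset. Ndufs6, a zinc-binding subunit added late in assembly, had 519.8, 544 and 495 CPM in old against 248, 228 and 285 CPM in young cultures, a log2 change of 1.03 ± 0.14 (SE, edgeR adjusted p = 0.000451). Both had all old libraries above the young ones. Ndufa2, which has a thioredoxin-like fold, had 811, 941 and 897 CPM in old against 478, 381 and 515 CPM in young cultures, a log2 change of 0.95 ± 0.14 (SE, edgeR adjusted p = 0.001). Ndufa12, which takes the place of its paralog Ndufaf2 in the finished enzyme, had 325, 316 and 313 CPM in old against 165, 139 and 209 CPM in young cultures, a log2 change of 0.90 ± 0.17 (SE, edgeR adjusted p = 0.00377) that was 0.59 with that offset. In these genes too the groups did not overlap. With the length and GC offset, the changes of Ndufs6 and Ndufa2 no longer passed the test, at adjusted p of 0.23 and 0.114. With the median of all coding transcripts in that offset both passed, at edgeR adjusted p of 0.0291 and 0.0103. Their adjusted p ran up to 0.27 and 0.165 over all alternatives. Ndufs4, whose loss causes a form of Leigh syndrome in people and mice, rose by 0.72 on the log2 scale, but not when young 1 was left out (adjusted p = 0.0705) or with library totals (0.198).

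In the Q module, which hands electrons to ubiquinone, 2 of 5 genes rose and none fell, while 0 were higher with library totals or with the length and GC offset. Ndufs7, which carries the last cluster before ubiquinone, had 329, 327 and 329.9 CPM in old against 239, 270.2 and 278 CPM in young cultures. The groups did not overlap. The log2 change was 0.33 ± 0.13 (SE, edgeR adjusted p = 0.114), but it was -0.09 with library totals and -0.48 with the length and GC offset, where it passed the test as lower (adjusted p = 0.0456). Over the alternatives that p ran from 0.0373 to 0.644. Ndufs8, a core subunit with a pair of clusters, had 379, 308 and 414 CPM in old against 244, 207 and 282 CPM in young cultures. All old libraries were above the young, and its log2 change was 0.59 ± 0.17 (SE, edgeR adjusted p = 0.0301). That call ended when old 1, old 3, young 1 or young 2 was left out (adjusted p up to 0.113), with library totals (0.471) and with the length and GC offset (0.987). Ndufs3, a core subunit without a cluster, had 109, 144 and 120.4 CPM in old against 83.5, 74.0 and 93.7 CPM in young cultures. These did not overlap, and the log2 change of 0.57 ± 0.19 (SE, edgeR adjusted p = 0.0531) missed the threshold. It passed with RLE scaling (0.0474), upper-quartile scaling (0.0465), DESeq2 (0.0214) and limma-voom (0.0421) and when young 3 was left out (0.0389), and it was 0.12 with the length and GC offset (0.698). Ndufa5, an accessory subunit, rose by 0.73 on the log2 scale, a call that ended when old 3, young 1 or young 2 was left out (adjusted p up to 0.0656), with library totals (0.209) and with the offset (0.208).

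All 3 genes grouped here as lying at junctions between modules rose. Ndufa11, a membrane subunit at the contact with complex III in supercomplexes, had 579.6, 584 and 668 CPM in old against 285, 315 and 351 CPM in young cultures. Its log2 change was 0.94 ± 0.14 (SE, edgeR adjusted p = 0.000756). Ndufa6, a protein of the LYR family that binds the acyl carrier protein Ndufab1, had 440.3, 507 and 432 CPM in old against 259.9, 200.0 and 280.4 CPM in young cultures. It changed by 0.90 ± 0.16 (SE, edgeR adjusted p = 0.00256) on the log2 scale. Neither overlapped between groups, and with the length and GC offset their changes were 0.06 and 0.16, with adjusted p of 0.851 and 0.452. Ndufa9, which binds a nucleotide near the ubiquinone pocket, rose by 0.56 on the log2 scale, a call that ended without old 1, old 3, young 1 or young 2 (adjusted p up to 0.117) and with library totals (0.514).

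In the proximal membrane arm 6 of 7 tested genes rose and Ndufa10 fell, with 5 higher with library totals and 3 with the length and GC offset. Ndufa1, a short membrane subunit encoded on the X chromosome, had 1253, 1291 and 993 CPM in old against 539, 386 and 612 CPM in young cultures. The lowest old library was still above the highest young library. The log2 change of Ndufa1 was 1.20 ± 0.18 (SE, edgeR adjusted p = 0.00087), or 0.50 with the length and GC offset. Ndufc1, a membrane subunit of the same region, had 393, 447 and 442 CPM in old against 209, 182 and 219 CPM in young cultures, and a log2 change of 1.07 ± 0.14 (SE, edgeR adjusted p = 0.000434). Its partner Ndufc2 had 821, 894 and 800.1 CPM in old against 456, 377 and 511 CPM in young cultures, with 0.90 ± 0.14 (SE, edgeR adjusted p = 0.00119), or 0.35 with the offset. Both were higher in every old library than in any young library. Ndufa3, another membrane subunit, had 838, 825 and 826 CPM in old against 421, 410.3 and 528 CPM in young cultures, with 0.87 ± 0.13 (SE, edgeR adjusted p = 0.00111). Ndufa13, also known as Grim19, had 761, 846 and 742 CPM in old against 458, 378 and 493 CPM in young cultures, with 0.82 ± 0.14 (SE, edgeR adjusted p = 0.00188). These groups did not overlap, and with the length and GC offset the changes of Ndufa3 and Ndufa13 were 0.17 and 0.33 and did not pass the test (adjusted p of 0.288 and 0.184). Exons of Ndufa13 overlap Tssk6 on the opposite strand over 30.0% of their length, and without a stated strand setting reads of both cannot be told apart. Ndufa8, a twin-cysteine protein of the intermembrane space, rose by 0.49 on the log2 scale. The Ndufa8 call was lost whichever of the 6 libraries was left out (adjusted p of 0.0613 to 0.117), as it was with library totals (0.752), and its sign turned with the length and GC offset (-0.10).

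Ndufa10, described here because it was one of only 2 genes that fell, was chosen after its values were seen. The gene (chr1:92439010-92473860, minus strand) encodes an accessory subunit with a fold like that of nucleoside kinases. It had 80.9, 106 and 117 CPM in old against 206, 163 and 137 CPM in young cultures. No old library reached the lowest young library. The log2 change was -0.73 ± 0.21 (SE, edgeR adjusted p = 0.0291). That call ended when old 1, old 2, young 1 or young 2 was left out (adjusted p up to 0.17) and with replicate number as a block (0.0672). It also ended with that block and the length and GC offset together, and with the median of all coding transcripts in the offset. The log2 change stayed between -1.15 and -0.52 over the 19 alternatives. Ndufs5 of the same arm had 0 counts in all 6 libraries. That allows up to 0.0657 CPM of counted reads in old and 0.0474 CPM in young cultures, at 3 counts over a group, which covers counting error only. Whether the transcript was absent or its reads were lost in mapping or counting was not tested. Of the 75-base windows of its transcript, 32.4% are shared with the processed pseudogene BC002163, which had 237, 205 and 181 counts in old and 133, 107 and 152 counts in young cultures.

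All 11 genes of the distal arm, the far end of the membrane part, rose, but 5 were higher with library totals and 4 with the length and GC offset. Ndufb2 had 385, 413 and 417 CPM in old against 202, 179 and 195 CPM in young cultures, with a log2 change of 1.08 ± 0.13 (SE, edgeR adjusted p = 0.000321). Ndufb11, also encoded on the X chromosome, had 444, 504 and 490.0 CPM in old against 244, 179 and 276 CPM in young cultures, with 1.04 ± 0.17 (SE, edgeR adjusted p = 0.00158), or 0.56 with the offset. Ndufb3, a short single-pass subunit, had 357, 358 and 360.3 CPM in old against 166, 156 and 208 CPM in young cultures, with 1.02 ± 0.15 (SE, edgeR adjusted p = 0.00091), or 0.44 with the offset, and it did not pass with the offset and the replicate block together (adjusted p = 0.0578). In all of these the old libraries were above the young. Ndufb9, a LYR protein bound to the second copy of the acyl carrier protein, had 691, 791 and 634 CPM in old against 361, 325 and 405 CPM in young cultures, with 0.95 ± 0.14 (SE, edgeR adjusted p = 0.000888). Ndufb6 had 371, 426 and 337 CPM in old against 209, 181 and 236 CPM in young cultures, with 0.86 ± 0.16 (SE, edgeR adjusted p = 0.00312). No groups overlapped here either, but exons of Ndufb6 overlap the opposite-strand gene Smim27 over 39.0% and those of Ndufb9 overlap Gm49356 on the same strand over 19.5% of their length. With the length and GC offset Ndufb2, Ndufb9 and Ndufb6 did not pass the test, at adjusted p of 0.261, 0.199 and 0.175. This depended on the transcript used for the offset. With the longest transcript Ndufb2 rose by 1.57 on the log2 scale (edgeR adjusted p = 9.125e-06), while Ndufb9 (0.246) and Ndufb6 (0.244) did not pass. With the median of all coding transcripts Ndufb2 (0.0236) and Ndufb9 (0.0303) passed and Ndufb6 (0.0797) did not. Ndufb7, a twin-cysteine protein of the intermembrane space, had 388, 399 and 505 CPM in old against 245, 247 and 282 CPM in young cultures, with 0.74 ± 0.15 (SE, edgeR adjusted p = 0.00565). Ndufb8 had 782, 779 and 681 CPM in old against 419, 385 and 539 CPM in young cultures, with 0.74 ± 0.15 (SE, edgeR adjusted p = 0.00586). Old and young libraries were apart in both, yet with the length and GC offset the changes were -0.12 for Ndufb7 and -0.0025 for Ndufb8, with adjusted p of 0.753 and 0.994. The other distal genes, Ndufab1, Ndufb4, Ndufb5 and Ndufb10, rose by 0.62 to 0.96 on the log2 scale. With library totals the calls of Ndufab1, Ndufb4, Ndufb5, Ndufb7, Ndufb8 and Ndufb10 were lost (adjusted p of 0.062 to 0.323). With the offset Ndufb4 lost its call (0.132), and Ndufb10 did too and turned to -0.09 (0.724). With the median of all coding transcripts in the offset Ndufb4 kept its call and Ndufb10 did not. Ndufb4 lost its call without old 2 or young 1 (adjusted p up to 0.0711), and Ndufb5 without old 2, old 3, young 1 or young 2 (up to 0.0841). Other genes share 35.2% of the 75-base windows of Ndufb4, 28.2% of those of Ndufs3, 27.6% of those of Ndufab1 and 22.0% of those of Ndufa12. In each the gene sharing the most is a processed pseudogene, so the counts of these 4 genes are uncertain. Ndufb2 is uncertain too, with 21.8% of its windows shared and the protein-coding Gm42420 sharing the most.

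Ndufa4, first described in complex I and now known as a subunit of cytochrome c oxidase, did not pass the test. It had 439.8, 537 and 616 CPM in old against 427, 334 and 485 CPM in young cultures. The groups overlapped, and its log2 change of 0.35 ± 0.17 (SE, edgeR adjusted p = 0.189) turned to -0.06 with library totals and -0.37 with the length and GC offset. Its paralog Ndufa4l2, a gene known to respond to low oxygen, had 1, 9 and 7 counts in old and 5, 7 and 3 counts in young cultures and was too low to test.

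**Figure D2:**
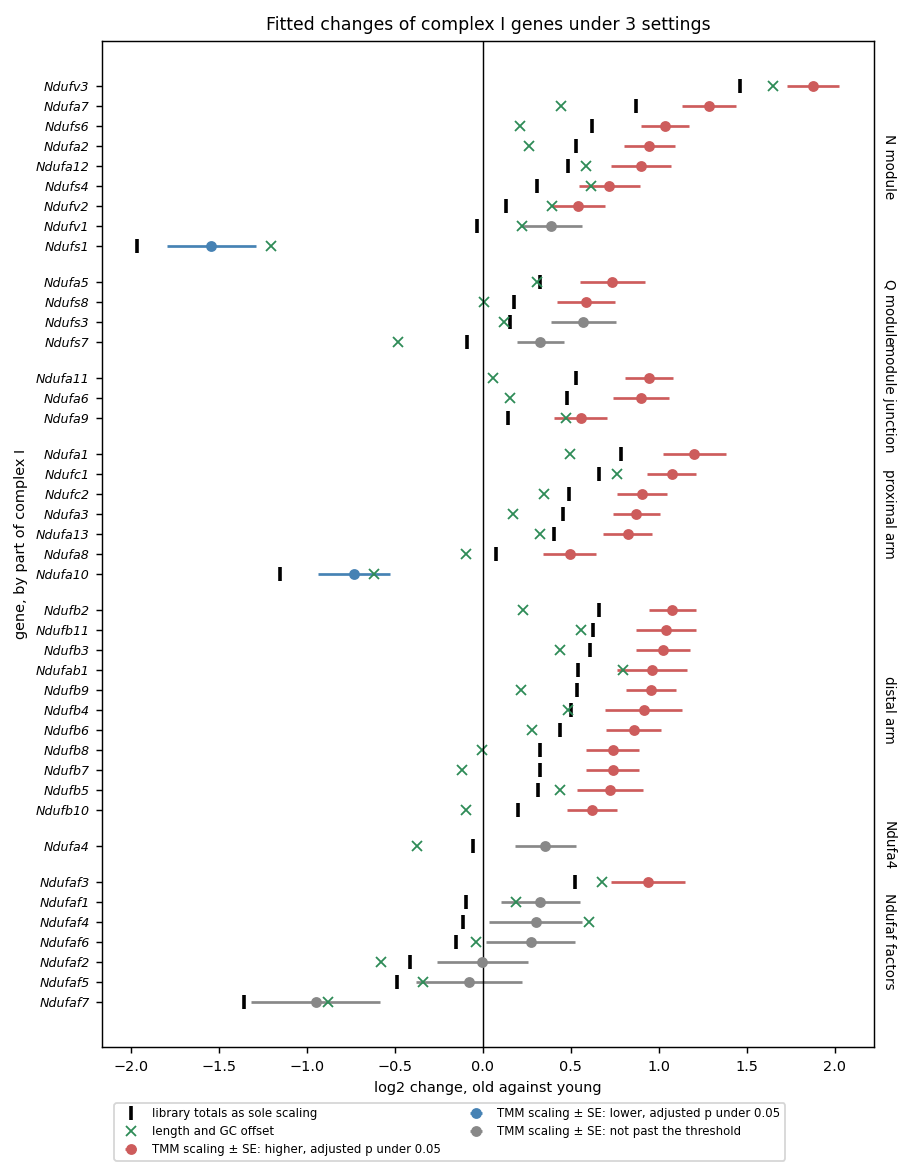
Log2 change, old against young (x axis), of 42 of the 43 tested Nduf genes (rows). Points with bars are the TMM fit ± SE (n = 3 per group), red where higher, blue where lower and grey where the adjusted p was not under 0.05; ticks show library totals and crosses the length and GC offset. Ndufv3 at 1.88 and Ndufs1 at -1.54 keep their sides under all 3 settings.

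Among the assembly factors Ndufaf3 alone passed the test. Ndufaf3 (chr9:108565537-108567434, minus strand), which works with Ndufaf4 on the Q module, had 92.5, 95.6 and 83.1 CPM in old against 56.6, 38.4 and 46.4 CPM in young cultures. The groups did not overlap. Its log2 change was 0.94 ± 0.21 (SE, edgeR adjusted p = 0.00993), and it lost the call with library totals (adjusted p = 0.0919, the highest over all alternatives). The call was also lost with the longest transcript in the length and GC offset, and with the replicate block and offset together. The other 6 did not pass. Ndufaf4 had 61.5, 86.1 and 80.5 CPM in old against 45.9, 53.4 and 85.8 CPM in young cultures, with overlapping groups. Ndufaf1, of the intermediate that assembles the membrane arm, had 48.1, 57.3 and 54.2 CPM in old against 46.9, 43.1 and 37.1 CPM in young cultures, and these did not overlap. Ndufaf7, a mitochondrial methyltransferase, had 20.8, 9.57 and 14.2 CPM in old against 27.0, 25.8 and 33.3 CPM in young cultures, and every old library lay below the young. Its log2 change was -0.95 ± 0.37 (SE, edgeR adjusted p = 0.0989), and it passed the test with library totals (adjusted p = 0.0217), with a range of 0.0217 to 0.246 over the alternatives. Ndufaf2, Ndufaf5, which hydroxylates Ndufs7, and Ndufaf6 overlapped between groups, at log2 changes of -0.08 to 0.27. The exons of Ndufaf2 overlap an opposite-strand gene, B230220B15Rik, over 65.6% of their length. A further factor, Ndufaf8, stands in the table under the older symbol 1810043H04Rik, outside the rule, and was at 129, 127 and 111 CPM in old against 54.6, 51.9 and 81.6 CPM in young cultures. Its log2 change was 0.96 ± 0.21, edgeR adjusted p = 0.00952, and it did not pass without young 1 (0.0588), with library totals (0.0726) or the length and GC offset (0.38).

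Of 9 assembly factors with names other than Ndufaf (Acad9, Ecsit, Tmem126a, Tmem126b, Timmdc1, Foxred1, Nubpl, Tmem70 and Tmem186), 0 passed the edgeR test in either direction, at log2 changes of -0.68 to 1.03. At an unadjusted p under 0.05 2 were higher and 0 lower, while after adjustment DESeq2 called 1 higher and 0 lower and limma-voom 0 either way. With the length and GC offset Foxred1 was higher, at a log2 change of 1.24 (adjusted p = 0.0414). Of 12 iron-sulfur cluster genes, whose products supply the clusters of complex I, 2 rose and 1 fell. With library totals 0 rose and 3 fell (Hspa9, Lyrm4 and Nfs1), and with the length and GC offset 1 rose and 0 fell. Over all genes tested 11.2% rose and 8.14% fell, against 6.07% and 20.2% with library totals and 10.5% and 5.07% with that offset. The lists in this paragraph are short, and none was tested against these shares. Bola3 and Isca2 rose by 0.98 (adjusted p = 0.00486) and 0.91 (adjusted p = 0.013) on the log2 scale, and Hspa9, the mitochondrial heat shock protein that helps hand clusters on, fell by 0.51 (adjusted p = 0.0467). Isca2 lost its call without young 1 (0.0628) and Hspa9 whichever library was left out (0.0562 to 0.175). Regulators of nuclear respiratory genes were counted together with factors that act on mitochondrial DNA (Polrmt, Tfam, Tfb1m and Tfb2m). Of the 11 tested, 0 rose and 2 fell. With library totals 3 fell, Yy1 among them (adjusted p = 0.0421), and with the length and GC offset 0 fell and Tfam, which packages mitochondrial DNA, rose by 1.1 on the log2 scale (0.0136). By an unadjusted p under 0.05 1 of the 11 was higher, and 0 were by DESeq2 or limma-voom after adjustment. Polrmt, the mitochondrial RNA polymerase, had 8.62, 4.18 and 7.44 CPM in old against 24.5, 38.3 and 10.5 CPM in young cultures, and Pprc1, a coactivator, 16.4, 9.84 and 26.2 CPM against 30.1, 68.9 and 36.7 CPM. Their log2 changes were -1.86 (adjusted p = 0.0305) and -1.37 (adjusted p = 0.043). The Polrmt call ended without old 2, old 3, young 1 or young 2 (adjusted p up to 0.182), and the Pprc1 call without any library but old 3 (up to 0.221). Nrf1 itself had 29.1, 29.2 and 28.1 CPM in old against 19.9, 41.4 and 19.9 CPM in young cultures. Of 7 tested enzymes that also feed ubiquinone, Sdhc and Sdhd, membrane anchors of complex II, rose by 0.93 (adjusted p = 0.00118) and 0.45 (adjusted p = 0.0483). The median log2 change of the 7 was -0.55. With library totals Sdhc was higher while Etfdh, Sdha and Gpd2 were lower. Those falls were -1.14, -1.01 and -1.30 on the log2 scale (edgeR adjusted p of 0.00598, 0.0101 and 0.0208). Etfdh, Sdha and Gpd2 did not pass with TMM scaling (0.0578, 0.0808 and 0.0999) or with the length and GC offset (0.244, 0.627 and 0.774). Sdhd lost its call when any library but young 3 was left out (adjusted p up to 0.197). Of 10 supercomplex and stability factors, Higd1a and Higd2a rose by 2.78 (adjusted p = 5.75e-06) and 0.93 (adjusted p = 0.00244). Higd1a, known to be induced by low oxygen, had 774, 902 and 649.9 CPM in old against 121.1, 88.7 and 128 CPM in young cultures, with no overlap. With library totals Bola3, Isca2 and Sdhd did not pass the test (adjusted p of 0.0503 to 0.872), and with the length and GC offset Isca2, Hspa9, Polrmt, Pprc1, Sdhd and Higd2a did not (0.0564 to 0.69). Sdhc and Higd1a passed in all 19 alternatives.

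Transcript length moved with the changes. The tested Nduf transcripts were short, with a median of 971 bases against 2713 over all tested genes, and 34 of 43 lay in the shortest of 5 equal classes of genes by length. In that class, 31.5% of all genes were higher, 3.08% were lower, and the median log2 change was 0.53, against 0.87 for the 34 Nduf genes, of which 27 rose and 0 fell. In the longest class 2.56% of genes were higher and the median was -0.49. Across 11705 genes with a length, Spearman's rho of length and log2 change was -0.365, and across the 43 Nduf genes it was -0.511. Those points share libraries, and genes are not independent replicates. The core subunits were longer than the accessory subunits, with medians of 1623 and 747.5 bases. Ndufv3 at 1582 bases and Ndufs1 at 2590 bases both lie outside the shortest class. How length comes to move with the change was not tested.

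**Figure D3:**
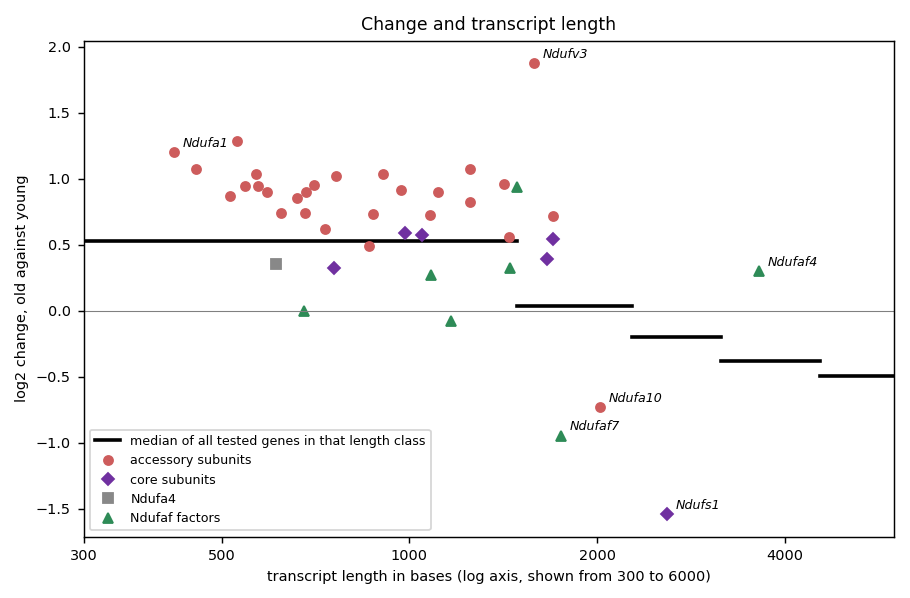
Log2 change, old against young (y axis), against transcript length in bases (x axis, log scale) for 42 of the 43 tested Nduf genes, with black bars at the median of all tested genes in each of 5 length classes. The bars run from 0.53 in the shortest to -0.49 in the longest class, and most accessory subunits lie above the first bar.

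Shares of a gene among all Nduf counts of its own library need no scaling factor. By this measure Ndufs1 held 0.209%, 0.194% and 0.121% in old against 0.969%, 0.945% and 0.819% in young cultures. Old and young libraries did not overlap. Ndufv3 held 6.04%, 6.16% and 5.79% in old against 2.85%, 2.80% and 3.06% in young cultures, again without overlap. Ndufa10 held 0.496%, 0.618% and 0.710% in old against 2.19%, 1.99% and 1.31% in young cultures, lower in every old library. Core subunits were at a lower share of Nduf counts in all old libraries for 6 of 7 genes, the exception being Ndufv1, and higher for 0. Of 28 accessory subunits 8 were higher and 2 lower, and of 7 assembly factors 5 were lower. Set against the same Nduf sum, 52.5% of all tested genes were lower and 5.46% higher without overlap, so a lower share is common. Ratios between partner subunits, picked after the values were seen, gave 18.2, 19.2 and 10.6 counts in old against 58.2, 51.2 and 76.5 counts in young cultures for Ndufs1 per 100 counts of Ndufv1. For Ndufv3 per 100 counts of Ndufv2 they gave 199.8, 226 and 195 counts in old against 83.6, 81.6 and 81.1 counts in young cultures. Neither ratio overlapped between groups.

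**Figure D4:**
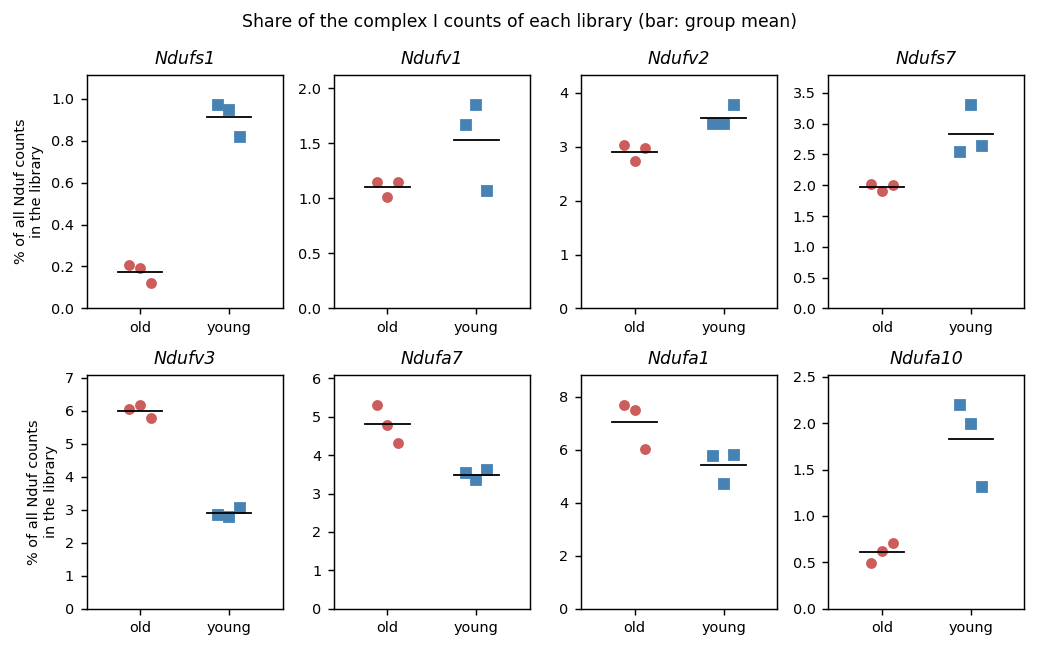
Share of all Nduf counts of a library (y axis, percent, from 0) held by 8 genes in the 3 old (red circles) and 3 young (blue squares) libraries, with bars at group means. Genes were picked after their values were seen. Ndufs1 lies at 0.121% to 0.209% in old and 0.819% to 0.969% in young libraries.

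Per kilobase of transcript, the order of levels was much the same at its top. Ndufa1 led in both groups, at 2814 ± 388 CPM per kilobase in old and 1223 ± 274 in young cultures (SD, n = 3 each). Ndufa3 and Ndufa2 followed in both, and their means differed by less than the SD of Ndufa2 in both groups. Ndufv3 stood at place 14 of 43 in old and 25 of 43 in young cultures, at 633 ± 33.6 and 172 ± 29.5 CPM per kilobase. Ndufs1 stood at place 42 in old and 37 in young cultures, at 11.2 ± 3.05 and 32.7 ± 2.67 CPM per kilobase. Ndufa4 stood at place 11 in old and 4 in young cultures. Ndufaf7 was last in both. These places rest on 1 transcript length per gene.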

How the data were processed

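RNA was measured by single-end 75-base sequencing of total RNA. The authors deposited raw counts, whole numbers per gene symbol, and the submitters' processing notes name STAR 2.5.3a, Cufflinks 2.0, DESeq2 1.1 and build mm10. How reads were counted, and whether strand was used, is not given in the sources used here.

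Counts were fitted in R 4.3.3 with edgeR 4.0.16 (filterByExpr with minimum count 10 and minimum total 15, TMM scaling, quasi-likelihood test), old against young, with Benjamini-Hochberg adjustment over 11805 genes and a threshold of 0.05. SE is the log2 change divided by the root of F. The scripts were tested on simulated data. Transcript length and GC came from GENCODE vM21 and were found for 98.4% of symbols. The length and GC offset was a smooth of each library's log2 CPM deviations (prior count 2) fitted with mgcv 1.9.3.

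The rule that picks a transcript was chosen after the data were seen. 3 rules were tried with results on screen: the median-length transcript among all basic coding ones (18 Nduf genes changed), the longest principal transcript (15 changed) and the median-length principal transcript, which is the one used (17 changed). The members, gene lists and motifs were chosen with earlier results of these data known. Genes given in full are the nuclear core subunits, Ndufa4 and Ndufa4l2, and called members by smallest p, up to 20 subunits. Other scalings, filters, tools and single libraries left out were tried as alternatives. Some items are not reported here.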

Additional observations from a re-analysis of the deposited data

How the results depend on the processing

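The number of changed genes over all genes, 2286, went to 1314 to 2141 with 1 library left out, lowest without young 1 (1314) and young 2 (1515), and to 1485 with the replicate block and the length and GC offset together. Higher subunits numbered 21 to 29 and lower subunits 1 to 2 with 1 library left out, with subunit medians of 0.75 to 0.97, assembly factor medians of 0.14 to 0.27, and 1 assembly factor higher and 0 lower throughout. Higher subunits were 17 with library totals, 13 with the length and GC offset, 12 with the longest transcript in it, 16 with the median of all coding transcripts and 9 with the replicate block and offset. The subunit median was 0.42, 0.25, 0.24, 0.33 and 0.25 in those settings. Lower subunits were 1 with the median of all coding transcripts and 1 with the replicate block. Assembly factors higher were 0 with library totals, with the longest transcript and with the replicate block and offset, and 1 was lower with library totals. Their median was -0.15 with library totals, -0.0385 with the offset, -0.078 with the longest transcript and -0.0223 with the replicate block and offset. The cause of these differences was not tested.

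Turns of sign were listed for the Nduf genes given above with an SE. With library totals the sign turned for Ndufs7 (-0.0903), Ndufv1 (-0.0299) and Ndufa4 (-0.0578). Genes outside that set in which it also turned include Ndufaf1 (-0.09), Ndufaf4 (-0.11) and Ndufaf6 (-0.15). With the offset it turned for Ndufs7 (-0.48), Ndufa4 (-0.37), Ndufb7 (-0.12) and Ndufb8 (-0.0025). Outside that set, genes in which it also turned include Ndufa8 (-0.10), Ndufb10 (-0.09) and Ndufaf6 (-0.04). With the longest transcript it turned for Ndufs7 (-0.50), Ndufs8 (-0.0052), Ndufa4 (-0.40), Ndufb7 (-0.13) and Ndufb8 (-0.023), with the median of all coding transcripts for Ndufs7 (-0.31) and Ndufa4 (-0.21), and with the replicate block and offset for Ndufs7 (-0.49), Ndufs8 (-0.008), Ndufa4 (-0.38) and Ndufb7 (-0.15).

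Deviations of same-numbered libraries correlated at 0.02, 0.009 and 0.041, against -0.027 to 0.012 for libraries of different number. Values this small cannot decide whether replicate numbers pair the samples. With the replicate block alone, 28 subunits were higher and 1 lower, and all genes changed numbered 2008. Ndufa8 and Ndufa10 lost their calls. Each old library correlated best with the young library of its own number, but young 2 correlated best with old 1 (0.012). Genes with few counts, such as Ndufa4l2, could not be tested at this depth.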
